A study of Homo sapiens with 9 samples.

Results

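The SR proteins and the heterogeneous nuclear ribonucleoproteins (hnRNPs) are the 2 large families of RNA-binding proteins that steer splice site choice, and their transcripts were followed here after SPANX knockdown in A375, an established human melanoma cell line. Members were taken by symbol, as every gene named SRSF followed by a number or HNRNP followed by a letter, provided that it was above 0 in each of the 3 groups. Of 158 listed gene IDs with such symbols, 37 qualified: 10 SR genes, 21 hnRNP genes and 6 hnRNP members with a pseudogene symbol, a split made by symbol. GENCODE 29 lists 5 of these 6 as pseudogenes and HNRNPA1P48 as protein-coding. They stood among 13825 gene IDs above 0 in all 3 groups, of 60420 listed. All 37 were above 0 in every library. Of the remainder, 120 were at 0 in all libraries, among them SRSF12 and HNRNPCL1. The pseudogene HNRNPKP2 lay just outside the rule, with 16.6, 8.83 and 10.6 normalised reads in SPANX KD 86, 0 in each SPANX KD 87 library and 16.8, 15.6 and 8.67 in EV.

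The groups were cells with knockdown construct 86 (SPANX KD 86), cells with knockdown construct 87 (SPANX KD 87) and the EV control cells (EV), with 3 libraries each and RNA taken 7 days after knockdown. All cells were A375, and the kind of construct and the words behind EV are not given in the sources used here. Nor are separate cultures named for the replicates, so a p-value here speaks only for how these 9 libraries varied, possibly for technical reasons. The study concerns SPANX, a family of cancer-testis genes on the X chromosome, and its relation to lamin A/C, nuclear architecture and melanoma growth. Libraries were made with QuantSeq, which reads the 3′ end of messenger RNA and gives about 1 tag per molecule.

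SR proteins carry RNA recognition motifs and a tail of arginine and serine repeats. They bind exonic enhancers, recruit the U1 and U2 particles to splice sites and shuttle or sit in nuclear speckles depending on phosphorylation of that tail. hnRNPs coat nascent transcripts, often act as silencers of the same exons, and also serve in messenger RNA export, stability and translation. Many genes of both families limit their own output through alternative exons or introns that send the transcript to nonsense-mediated decay.

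Recovered depth ran from 11310656 to 15564093 reads per library. SPANXC, the targeted family member with most reads, stood at 102, 35.3 and 42.4 normalised reads in SPANX KD 86, 25.4, 18.1 and 33.8 in SPANX KD 87 and 402, 151 and 514 in EV. Its log2 fold change was -2.53 with SPANX KD 86 (adjusted p = 0.00372 in limma) and -3.60 with SPANX KD 87 (0.00335). SPANXD, the other of 10 listed SPANX IDs above 0, had 0.974, 0.883 and 0 in SPANX KD 86 (1, 1 and 0 reads), 5.28, 6.03 and 7.16 in SPANX KD 87 and 103, 27.5 and 97.5 in EV. Of 9 melanocyte and melanoma markers 5 were above 0, with a summed level of 15627 to 21879 in SPANX KD 86, 8869 to 13031 in SPANX KD 87 and 3288 to 6750 in EV. Most of this sum was SOX10, at 12815 to 19742 in SPANX KD 86, 7133 to 11408 in SPANX KD 87 and 2278 to 5921 in EV. MITF and PMEL overlapped between SPANX KD 86 and EV, and were above every EV library in SPANX KD 87. The pigment cell genes DCT, MLANA, TYR and TYRP1 were listed at 0 throughout. Of 6 epithelial markers 3 were above 0 (CDH1, EPCAM and KRT5 at 0), with sums of 1945 to 2377 in SPANX KD 86, 6722 to 7481 in SPANX KD 87 and 8095 to 11203 in EV. Most of the epithelial sum was KRT18, at 1643 to 2031 in SPANX KD 86, 4816 to 5522 in SPANX KD 87 and 6795 to 9449 in EV. KRT8 and KRT14 were below every EV library in SPANX KD 86, and overlapped between SPANX KD 87 and EV. Fibroblast markers (5 of 6 above 0, THY1 at 0) summed to 712 to 851 in SPANX KD 86, 656 to 988 in SPANX KD 87 and 191 to 312 in EV. None of 5 immune markers was above 0, and 1 of 4 endothelial markers was, at no more than 49.7 (TEK, with CDH5 and VWF at 0 and PECAM1 not found under that symbol). The part of these marker differences in the results was not tested. In bulk RNA fewer cells of a type and less RNA per cell cannot be told apart.

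Of the 10 SR genes, 6 fell with SPANX KD 86 and 2 of these also with SPANX KD 87. Of the 21 hnRNP genes, 5 fell with SPANX KD 86 and 1, a different one, with SPANX KD 87. Lower genes made up 23.8% of the hnRNP genes with SPANX KD 86, against 17.6% of all genes. With SPANX KD 87 they made up 4.76% of the hnRNP genes, against 4.43% of all genes, so the hnRNP share was near that of all genes. In the fit of all 9 libraries without the replicate block, which gave these counts, no member rose with either construct. With the replicate number as a block, 7 of 10 SR genes were lower with SPANX KD 86 and 5 with SPANX KD 87, and 0 were higher. Of the 21 hnRNP genes, 11 were then lower and 1 higher with SPANX KD 86, and 4 lower and 1 higher with SPANX KD 87. The block called 28.3% of all genes lower and 27.0% higher with SPANX KD 86, and 14.8% lower and 16.1% higher with SPANX KD 87. The summed level of the 10 SR genes was 25367, 22138 and 26364 normalised reads in SPANX KD 86, 22377, 26274 and 33195 in SPANX KD 87 and 44963, 33752 and 41965 in EV. Every SPANX KD 86 and SPANX KD 87 library lay below every EV library, by a narrow margin for SPANX KD 87 replicate 3. As a share of all reads on the common scale, SR genes made up 0.180 ± 0.0184% in SPANX KD 86, 0.207 ± 0.0441% in SPANX KD 87 and 0.293 ± 0.0352% in EV (SD, n = 3 each). The 21 hnRNP genes summed to 90901, 86531 and 85567 in SPANX KD 86, 88841, 104610 and 99563 in SPANX KD 87 and 137190, 144300 and 98034 in EV. Here the SPANX KD 86 libraries were all below the EV libraries, and the SPANX KD 87 libraries overlapped with EV replicate 3. A normalised read is a 3′ tag count that is not divided by transcript length. Levels are compared between groups for the same gene, sum or share, and not between genes.

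With SPANX KD 86 against EV, 12 of the 37 members were lower and 0 were higher at an adjusted p under 0.05 in limma. That is 32.4% of the members, against 35.6% of all genes in either direction, 18.0% higher and 17.6% lower. By family these were 6 of 10 SR genes, 5 of 21 hnRNP genes and 1 of 6 members with a pseudogene symbol. The median log2 fold change was -0.50 over the members, -0.64 over the SR genes and -0.46 over the hnRNP genes, against -0.04 over all genes tested. The count of 12 was 5 without EV replicate 1, where 24.9% of all genes passed, and 5 without SPANX KD 86 replicate 2 (22.1% of all genes). It was 8 without SPANX KD 86 replicate 1 (29.4%) and 18, or 48.6% of the members, without EV replicate 3 (28.9%). With the replicate number as a block, 22 members were lower and 1 was higher, where 28.3% of all genes were lower and 27.0% higher (55.3% in all). Without reference to the test, every SPANX KD 86 library was below every EV library for 19 of 37 members, against 22.8% of all genes. It was above for 1 of 37, against 22.5%.

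With SPANX KD 87 against EV, 3 of 37 members were lower and 0 higher (8.11%), against 10.3% of all genes in either direction, 5.91% higher and 4.43% lower. These were the SR genes SRSF2 and SRSF7 and the hnRNP gene HNRNPA3. Median log2 fold changes were -0.36 over the members, -0.49 over the SR genes, -0.36 over the hnRNP genes and 0 over all genes. The count was 1 without EV replicate 1, EV replicate 3, SPANX KD 87 replicate 1 or SPANX KD 87 replicate 2, where 3.77%, 7.69%, 2.67% and 4.39% of all genes passed. Under the replicate block 9 members were lower and 1 higher, where 14.8% of all genes were lower and 16.1% higher (31.0% in all). Both comparisons use the same EV libraries, so members low in both are not 2 independent observations. All SPANX KD 87 libraries were below all EV libraries for 12 of 37 members, against 14.0% of all genes, and above for 1 of 37, against 15.2%.

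**Figure D1:**
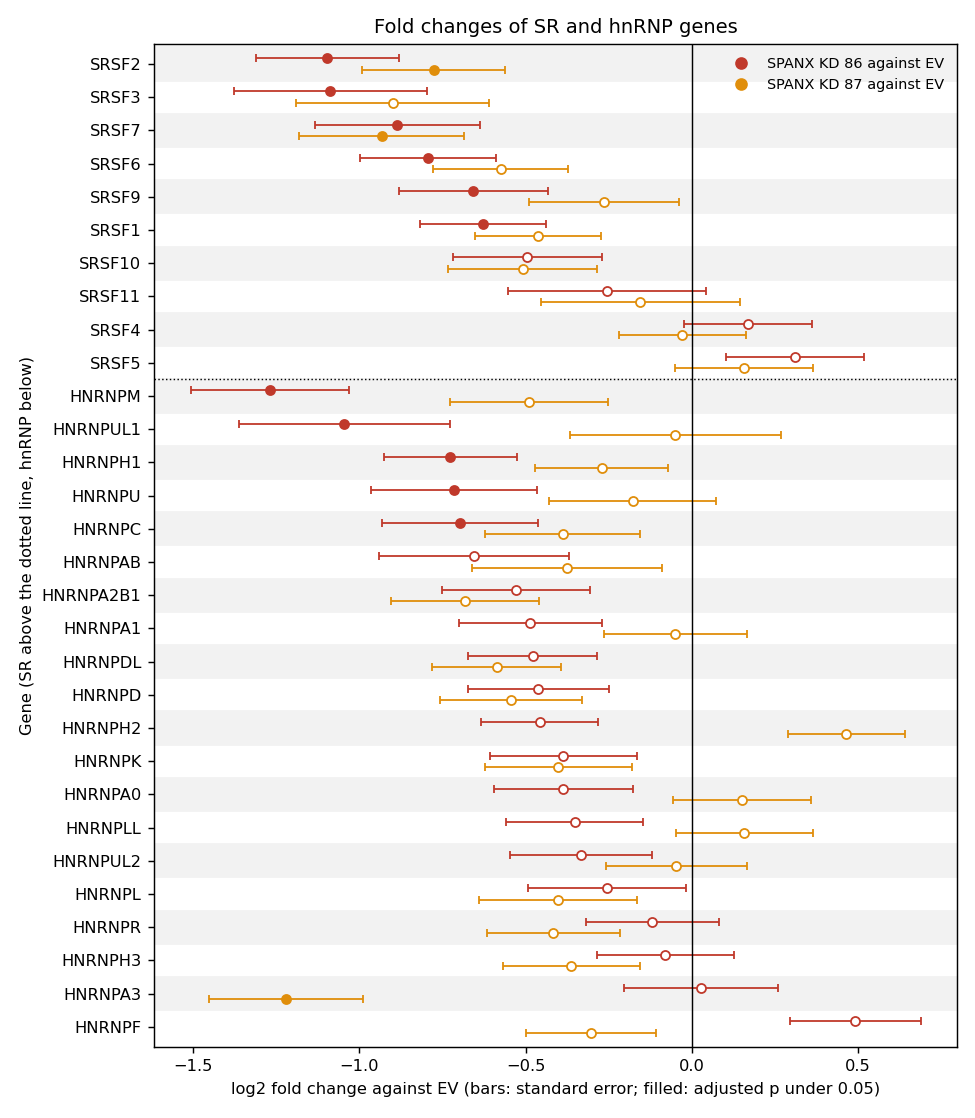
The plot of fold changes gives the log2 fold change of each SR gene (above the dotted line) and hnRNP gene (below it) against EV, with its standard error, for SPANX KD 86 and SPANX KD 87; filled points passed an adjusted p of 0.05. HNRNPA1L2 is not drawn. SRSF2 and SRSF7 are filled for both constructs, and HNRNPM and HNRNPA3 are each filled for 1 construct.

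Promoter sequences are shown for 5 members on which these comparisons turn. SRSF7 fell with both constructs, HNRNPM and HNRNPA3 are the hnRNP genes with the largest called change of each construct, and SRSF3 and HNRNPA2B1 are the matched SR and hnRNP genes with the most reads in EV. The choice by reads is not used to compare levels between genes. Each run is the last 120 bases before the annotated start, 5′ to 3′ on the gene's strand, from RefSeq on GRCh38.p14. Capitals mark matches, on either strand, to the E-box (letters CACGTG) and to the GC box (letters GGGCGG). They also mark the box known by its letters as CCAAT. The TATA box, searched as TATAAA, is marked as well. No match overlaps another in these stretches. The stretches lie at chr2:38751495-38751614 (minus strand) for SRSF7, chr19:8444855-8444974 (plus) for HNRNPM, chr2:177212674-177212793 (plus) for HNRNPA3, chr6:36594242-36594361 (plus) for SRSF3 and chr7:26200747-26200866 (minus) for HNRNPA2B1.
SRSF7: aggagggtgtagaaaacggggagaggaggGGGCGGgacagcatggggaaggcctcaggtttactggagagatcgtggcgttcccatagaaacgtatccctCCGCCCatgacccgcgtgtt
HNRNPM: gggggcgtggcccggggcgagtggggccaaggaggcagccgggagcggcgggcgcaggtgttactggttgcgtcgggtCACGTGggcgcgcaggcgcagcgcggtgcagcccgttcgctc
HNRNPA3: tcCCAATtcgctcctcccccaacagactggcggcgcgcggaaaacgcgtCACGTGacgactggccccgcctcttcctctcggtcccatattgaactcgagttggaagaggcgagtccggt
SRSF3: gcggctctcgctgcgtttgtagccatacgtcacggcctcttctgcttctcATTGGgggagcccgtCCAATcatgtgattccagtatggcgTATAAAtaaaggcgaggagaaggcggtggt
HNRNPA2B1: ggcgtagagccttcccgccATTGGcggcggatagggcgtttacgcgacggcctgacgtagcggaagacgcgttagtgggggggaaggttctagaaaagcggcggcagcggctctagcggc
The E-box of HNRNPM starts 42 bases before the annotated start and that of HNRNPA3 71 bases before it, while SRSF3 holds a TATA box 30 bases before its start. Over the 250 bases upstream of the 29 of 31 SR and hnRNP genes that matched the table, the E-box occurred in 6 of 20 hnRNP genes and 0 of 9 SR genes, against 8.93% of the promoters of 9588 tested genes. The 6 were HNRNPA3, HNRNPD, HNRNPDL, HNRNPH2, HNRNPH3 and HNRNPM. The CCAAT motif occurred in 13 of 20 hnRNP genes and 1 of 9 SR genes (35.3% of all), and the GC box in 16 of 20 and 3 of 9 (67.6% of all). The ETS core CCGGAAG was in 3 hnRNP and 2 SR promoters (16.0% of all), and the TATA box in 3 and 2 (5.1% of all). Median GC content was 65.6% in the members and 65.2% in all promoters. A match is a description of these letters and not of a bound factor.

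Among the SR proteins, the 6 genes lower with SPANX KD 86 were SRSF1, SRSF2, SRSF3, SRSF6, SRSF7 and SRSF9. SRSF2, also called SC35, had 3152, 2607 and 3252 normalised reads in SPANX KD 86, 2944, 3740 and 4727 in SPANX KD 87 and 7337, 5727 and 6216 in EV. The libraries of neither construct overlapped with EV. With SPANX KD 86 it was 2.14-fold lower (log2 fold change -1.10 ± 0.22 (SE), adjusted p = 0.00332). With SPANX KD 87 it was 1.71-fold lower (-0.78 ± 0.22 (SE), adjusted p = 0.0448). SRSF7, a zinc knuckle SR protein that also serves as an export adaptor, had 2710, 1860 and 2401 in SPANX KD 86, 1871, 2123 and 2764 in SPANX KD 87 and 5092, 3098 and 4845 in EV. All 6 knockdown libraries were below EV replicate 2, the lowest EV library. Its log2 fold changes were -0.89 ± 0.25 (SE), adjusted p = 0.019 with SPANX KD 86 and -0.93 ± 0.25 (SE), adjusted p = 0.0386 with SPANX KD 87, the second being 1.91-fold lower. SRSF2 kept its SPANX KD 86 call under every alternative, and SRSF7 lost it without EV replicate 1, EV replicate 3 or SPANX KD 86 replicate 2 (adjusted p = 0.0592 to 0.084). Both lost the SPANX KD 87 call without EV replicate 1, EV replicate 3, SPANX KD 87 replicate 1 or SPANX KD 87 replicate 2, with adjusted p from 0.0754 to 0.197. Both also lost it without the variance trend (0.0604 for SRSF2 and 0.0555 for SRSF7). The same held with only the 2 groups compared (0.0996 for SRSF2 and 0.0745 for SRSF7).

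SRSF3, the smallest SR protein and also an export adaptor, had 4737, 2982 and 4197 normalised reads in SPANX KD 86, 3927, 3948 and 5646 in SPANX KD 87 and 11274, 5593 and 9032 in EV. The EV libraries spread widely, and the highest SPANX KD 87 library passed the lowest EV library. With SPANX KD 86 SRSF3 was 2.13-fold lower (log2 fold change -1.09 ± 0.29 (SE), adjusted p = 0.0151). With SPANX KD 87 the value of -0.90 ± 0.29 (SE), adjusted p = 0.0735 passed with the replicate block (adjusted p = 0.00604) or without EV replicate 2 (0.0131). SRSF6, which binds purine-rich exonic enhancers, had 2035, 2169 and 2142 in SPANX KD 86, 1870, 2666 and 2988 in SPANX KD 87 and 3232, 3848 and 3959 in EV. Neither construct overlapped with EV, and the SPANX KD 86 libraries lay close together. The log2 fold change was -0.79 ± 0.20 (SE), adjusted p = 0.0127 with SPANX KD 86, kept under all 18 alternatives, and -0.58 ± 0.20 (SE), adjusted p = 0.097 with SPANX KD 87 (adjusted p = 0.0148 with the replicate block). SRSF1, the founding SR protein and a known oncogene in other settings, had 3301, 2935 and 3559 in SPANX KD 86, 3199, 3604 and 4230 in SPANX KD 87 and 5901, 4693 and 4604 in EV. The groups did not overlap for either construct. It was 1.55-fold lower with SPANX KD 86 (-0.63 ± 0.19 (SE), adjusted p = 0.0255), and with SPANX KD 87 the log2 fold change was -0.46 ± 0.19 (SE), adjusted p = 0.144. SRSF3 lost its SPANX KD 86 call without EV replicate 1 (adjusted p = 0.0624) or SPANX KD 86 replicate 2 (0.0689). SRSF1 lost it without EV replicate 1 (0.0849), SPANX KD 86 replicate 1 (0.0567) or SPANX KD 86 replicate 2 (0.105). SRSF1 also lost it with only the 2 groups compared (0.0549).

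SRSF9, a short SR protein, had 2312, 1858 and 2192 normalised reads in SPANX KD 86, 2542, 2658 and 3158 in SPANX KD 87 and 4635, 2861 and 2787 in EV. EV replicate 1 stood far above the other EV libraries, and the SPANX KD 87 libraries overlapped with EV. Its log2 fold change was -0.66 ± 0.23 (SE), adjusted p = 0.0424 with SPANX KD 86 and -0.26 ± 0.23 (SE), adjusted p = 0.479 with SPANX KD 87. The SPANX KD 86 call was lost in 8 of 18 alternatives, including without EV replicate 1 (adjusted p = 0.136) or any SPANX KD 86 library (0.0637 to 0.15). SRSF10, an SR-like protein that represses splicing when dephosphorylated, had 1933, 1625 and 2129 in SPANX KD 86, 1508, 1751 and 2463 in SPANX KD 87 and 2649, 2261 and 3126 in EV. SPANX KD 86 lay below EV in every library, and SPANX KD 87 did not. Its log2 fold change was -0.50 with SPANX KD 86 (adjusted p = 0.108, or 0.016 with the replicate block) and -0.51 with SPANX KD 87 (0.172, or 0.0258 with the block).

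The other 3 SR genes passed in no comparison, with or without the replicate block. SRSF5, first found as an insulin-induced gene in rat liver cells, had 1655, 2246 and 2348 in SPANX KD 86, 1549, 1877 and 2185 in SPANX KD 87 and 1475, 1636 and 1897 in EV. The groups overlapped, with a log2 fold change of 0.31 for SPANX KD 86 (adjusted p = 0.266) and 0.16 for SPANX KD 87 (0.659). With the length trend removed and the replicate block together, SRSF5 passed as higher with SPANX KD 86 (0.54, adjusted p = 0.00207). SRSF4, with the longest arginine and serine tail of the classical members, had 1294, 1375 and 1126 in SPANX KD 86, 1027, 1237 and 1046 in SPANX KD 87 and 946, 1376 and 1081 in EV. Its groups overlapped as well (adjusted p = 0.515 with SPANX KD 86 and 0.943 with SPANX KD 87). SRSF11, an SR-like protein, ranged from 2238 to 3019 in SPANX KD 86, 1941 to 3989 in SPANX KD 87 and 2424 to 4417 in EV (adjusted p = 0.532 with SPANX KD 86 and 0.774 with SPANX KD 87). The make-up of the SR sum shifted with these values, as a description with no test. SRSF5 made up 8.53 ± 1.84% of the SR sum in SPANX KD 86, 6.88 ± 0.282% in SPANX KD 87 and 4.22 ± 0.827% in EV (SD, n = 3 each). SRSF4 gave 5.19 ± 0.974% in SPANX KD 86, 4.15 ± 0.867% in SPANX KD 87 and 2.92 ± 1.03% in EV. SRSF2 made up 12.2 ± 0.352% in SPANX KD 86, 13.9 ± 0.623% in SPANX KD 87 and 16.0 ± 1.11% in EV. Within SPANX KD 87, replicate 1 was the lowest library for 10 of 10 SR genes and replicate 3 the highest for 9 of 10.

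**Figure D2:**
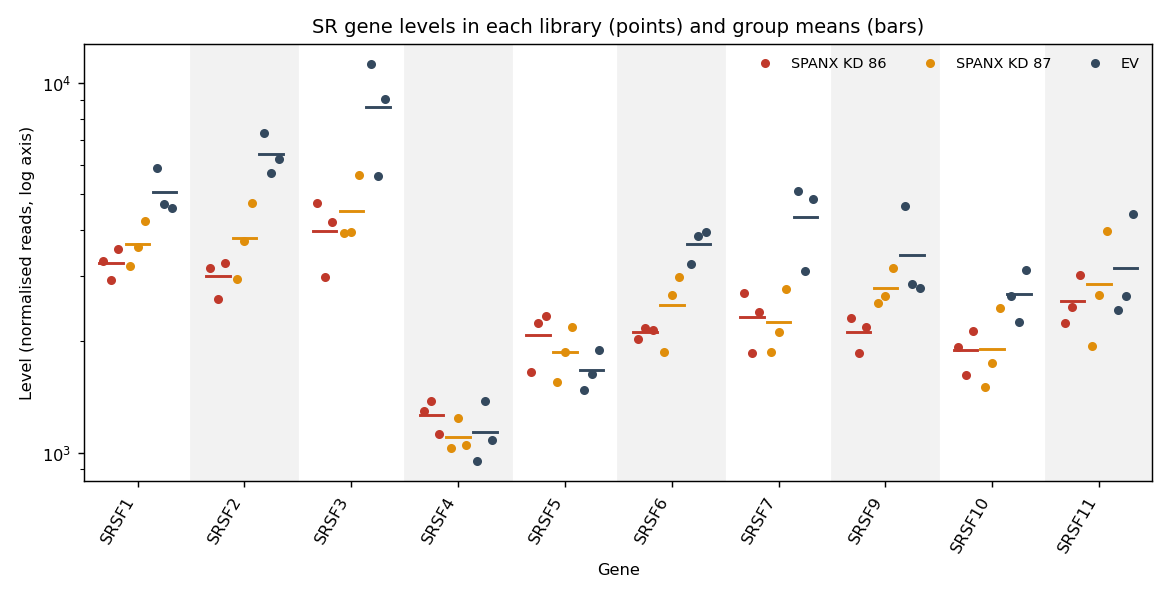
The plot of SR levels shows each library (point) and group mean (bar) for 10 SR genes, in normalised reads on a log axis, with SPANX KD 86, SPANX KD 87 and EV side by side. For SRSF1, SRSF2, SRSF6 and SRSF7 every knockdown point lies below every EV point, whereas the points of SRSF4, SRSF5 and SRSF11 overlap.

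The A and B class of hnRNPs bind AU-rich and AG-rich RNA and often silence exons. HNRNPA2B1, a core protein of the particles on nascent transcripts, had 16186, 16786 and 15809 normalised reads in SPANX KD 86, 11869, 16460 and 15949 in SPANX KD 87 and 23577, 28232 and 19348 in EV. No knockdown library reached the lowest EV library. The log2 fold changes of -0.53 ± 0.22 (SE), adjusted p = 0.0881 with SPANX KD 86 and -0.68 ± 0.22 (SE), adjusted p = 0.0775 with SPANX KD 87 missed the threshold. Both passed with the replicate block (adjusted p = 0.0295 with SPANX KD 86 and 0.0175 with SPANX KD 87). HNRNPA1, its close relative and a regulator of many cancer exons, had 11454, 10400 and 10928 in SPANX KD 86, 13513, 15189 and 15719 in SPANX KD 87 and 18471, 16457 and 11761 in EV. The SPANX KD 86 libraries were all below EV and the SPANX KD 87 libraries were not. The log2 fold change was -0.49 with SPANX KD 86 (adjusted p = 0.101, or 0.0451 with the replicate block) and -0.05 with SPANX KD 87 (0.907). HNRNPA3, a shuttling relative, had 3014, 2969 and 2619 in SPANX KD 86, 871, 1336 and 1498 in SPANX KD 87 and 2713, 3427 and 2382 in EV. The SPANX KD 87 libraries stood apart from both other groups, which overlapped. HNRNPA3 was 2.33-fold lower with SPANX KD 87 (-1.22 ± 0.23 (SE), adjusted p = 0.0102), a call kept in all 18 alternatives, and its log2 fold change with SPANX KD 86 was 0.03 ± 0.23 (SE), adjusted p = 0.939. HNRNPA0, which binds AU-rich elements, had 2232, 2368 and 2057 in SPANX KD 86, 3130, 3549 and 2997 in SPANX KD 87 and 3092, 3610 and 2174 in EV. Each construct overlapped with EV (adjusted p = 0.171 with SPANX KD 86, or 0.0461 with the replicate block, and 0.673 with SPANX KD 87).

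HNRNPC, whose tetramers bind uridine tracts and measure transcript length for nuclear export, had 6012, 4161 and 4822 normalised reads in SPANX KD 86, 6424, 5384 and 6621 in SPANX KD 87 and 10777, 6658 and 7160 in EV. Both constructs lay below EV in every library. The log2 fold change was -0.70 ± 0.23 (SE), adjusted p = 0.0396 with SPANX KD 86 (1.62-fold lower) and -0.39 ± 0.23 (SE), adjusted p = 0.313 with SPANX KD 87. The SPANX KD 86 call was lost without EV replicate 1, SPANX KD 86 replicate 2 or SPANX KD 86 replicate 3 (adjusted p = 0.0971 to 0.153). It was also lost with only the 2 groups compared (0.0786). The D class, which binds AU-rich elements and regulates messenger RNA decay, had 3 members, and none passed for either construct. HNRNPDL ranged from 2839 to 3585 in SPANX KD 86, 2356 to 3500 in SPANX KD 87 and 4376 to 4444 in EV, where the libraries lay close together. Its log2 fold change was -0.48 with SPANX KD 86 (adjusted p = 0.0752) and -0.59 with SPANX KD 87 (0.0786). HNRNPD, also called AUF1, gave -0.46 (adjusted p = 0.115) with SPANX KD 86 and -0.54 (0.13) with SPANX KD 87. HNRNPAB gave -0.66 (adjusted p = 0.0971) with SPANX KD 86 and -0.38 (0.428) with SPANX KD 87. With the replicate block, HNRNPDL passed for both constructs (0.0312 with SPANX KD 86 and 0.0227 with SPANX KD 87), HNRNPAB for SPANX KD 86 (0.00688) and HNRNPD for SPANX KD 87 (0.047).

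The F and H class recognises runs of guanines near splice sites, and 1 of its 4 members passed against EV without the replicate block. HNRNPH1 had 3565, 4380 and 5047 normalised reads in SPANX KD 86, 4908, 6569 and 6322 in SPANX KD 87 and 7519, 7073 and 6720 in EV. Every knockdown library was below every EV library. HNRNPH1 was 1.66-fold lower with SPANX KD 86 (-0.73 ± 0.20 (SE), adjusted p = 0.0173), with -0.27 ± 0.20 (SE), adjusted p = 0.413 for SPANX KD 87. HNRNPF had 5318, 4761 and 4890 in SPANX KD 86, 2501, 3195 and 2958 in SPANX KD 87 and 3578, 4301 and 2882 in EV. It was the 1 member with all SPANX KD 86 libraries above all EV libraries, while SPANX KD 87 overlapped with EV. Its log2 fold change was 0.49 ± 0.20 (SE), adjusted p = 0.0726 with SPANX KD 86, passing with the replicate block (adjusted p = 0.0245) or without EV replicate 2 (0.022), and -0.30 ± 0.20 (SE), adjusted p = 0.349 with SPANX KD 87. HNRNPH2, an X-linked relative of HNRNPH1, had 691, 782 and 915 in SPANX KD 86, 1525, 1330 and 1661 in SPANX KD 87 and 1110, 1112 and 1036 in EV. SPANX KD 86 lay wholly below EV and SPANX KD 87 wholly above it. The log2 fold change was -0.46 ± 0.18 (SE), adjusted p = 0.0641 with SPANX KD 86 and 0.47 ± 0.18 (SE), adjusted p = 0.117 with SPANX KD 87. With the replicate block both passed (adjusted p = 0.0225 with SPANX KD 86 and 0.0356 with SPANX KD 87). HNRNPH3, a shorter relative, ranged from 1624 to 1899 in SPANX KD 86, 1090 to 1710 in SPANX KD 87 and 1639 to 2037 in EV, and passed for neither construct. HNRNPH1 lost its SPANX KD 86 call without EV replicate 1, SPANX KD 86 replicate 1 or SPANX KD 86 replicate 2 (adjusted p = 0.053 to 0.0649). Reads of HNRNPH1 and HNRNPH2 could be split by a counter where their sequences are alike, which was not tested.

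**Figure D3:**
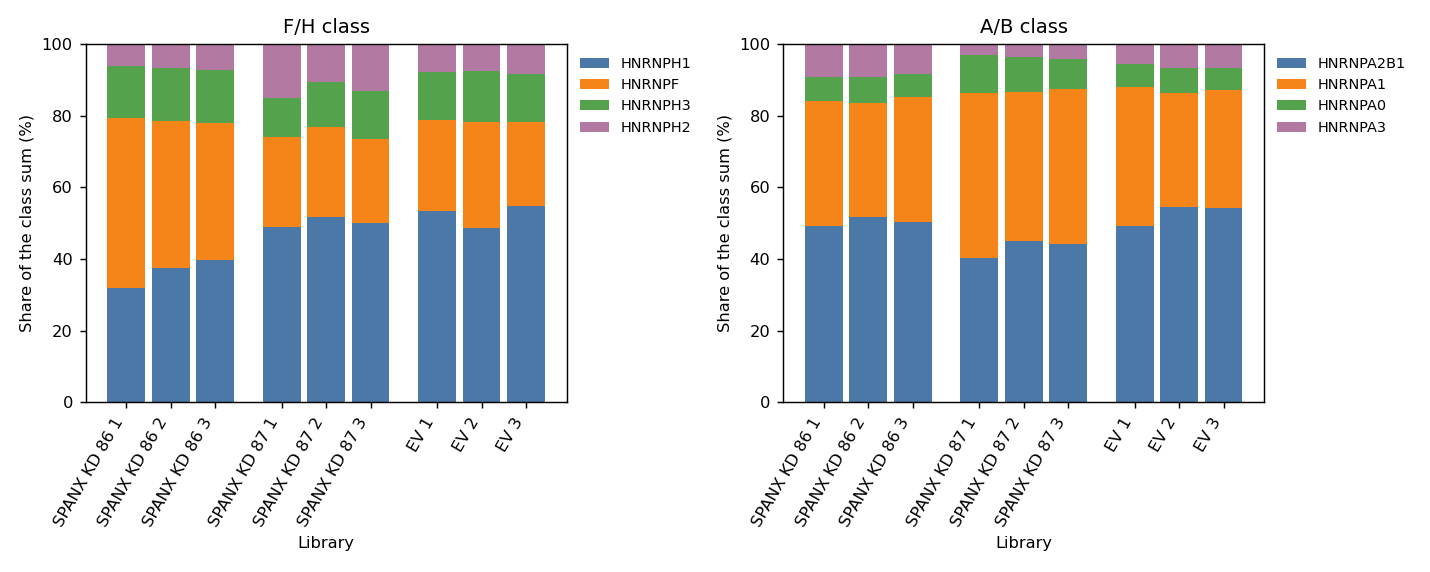
The plot of class shares stacks, for each library, the percent of the summed normalised reads of the F and H class (left) and of the A and B class (right) that each member gave. HNRNPF fills more of the F and H sum in the SPANX KD 86 libraries and HNRNPA3 less of the A and B sum in the SPANX KD 87 libraries.

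The make-up of both classes differed between the groups. HNRNPF gave 42.2 ± 4.73% of the F and H sum in SPANX KD 86, 24.5 ± 0.975% in SPANX KD 87 and 26.2 ± 3.14% in EV (SD, n = 3 each, here and below). HNRNPH1 gave 36.3 ± 4.02% in SPANX KD 86, 50.2 ± 1.41% in SPANX KD 87 and 52.3 ± 3.16% in EV. HNRNPH2 gave 6.68 ± 0.50% in SPANX KD 86, 12.9 ± 2.37% in SPANX KD 87 and 7.99 ± 0.403% in EV. In SPANX KD 86, then, the F and H sum held more HNRNPF reads and fewer HNRNPH1 reads, and in SPANX KD 87 more HNRNPH2 reads. HNRNPA3 gave 8.88 ± 0.467% of the A and B sum in SPANX KD 86, 3.59 ± 0.592% in SPANX KD 87 and 6.32 ± 0.567% in EV. HNRNPA1 gave 33.9 ± 1.64% in SPANX KD 86, 43.7 ± 2.21% in SPANX KD 87 and 34.5 ± 3.63% in EV. HNRNPA2B1 gave 50.4 ± 1.20% in SPANX KD 86, 43.2 ± 2.46% in SPANX KD 87 and 52.7 ± 2.98% in EV. The shares of 1 class sum to 100% in a library, so a higher share of 1 member lowers the others, and no test was run on them.

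HNRNPM, which binds GU-rich sequence and regulates CD44 exons in breast cancer cells, had 3470, 3289 and 3566 normalised reads in SPANX KD 86, 5101, 6163 and 6572 in SPANX KD 87 and 11228, 8592 and 5915 in EV. The SPANX KD 86 libraries lay close together below all others, and the EV libraries spread widely enough to overlap with SPANX KD 87. HNRNPM was 2.41-fold lower with SPANX KD 86 (-1.27 ± 0.24 (SE), adjusted p = 0.00269), a call kept in all 18 alternatives, and gave -0.49 ± 0.24 (SE), adjusted p = 0.213 with SPANX KD 87. HNRNPU, or scaffold attachment factor A, which organises chromatin on nascent RNA, had 6604, 7067 and 6855 in SPANX KD 86, 9341, 11080 and 9471 in SPANX KD 87 and 11828, 15581 and 7697 in EV. EV replicate 3 lay between the SPANX KD 86 and the SPANX KD 87 libraries. HNRNPU gave -0.72 ± 0.25 (SE), adjusted p = 0.0461 with SPANX KD 86 and -0.18 ± 0.25 (SE), adjusted p = 0.683 with SPANX KD 87. The SPANX KD 86 call was lost in 8 of 18 alternatives, including without EV replicate 1, EV replicate 2 or any SPANX KD 86 library (adjusted p = 0.1 to 0.114). HNRNPUL1, a relative of HNRNPU found through its binding to an adenoviral protein, had 1647, 2399 and 2145 in SPANX KD 86, 4022, 5220 and 3206 in SPANX KD 87 and 3646, 6955 and 2939 in EV. SPANX KD 86 was below EV in every library, and SPANX KD 87 overlapped with EV. HNRNPUL1 was 2.06-fold lower with SPANX KD 86 (-1.05 ± 0.32 (SE), adjusted p = 0.0261) and gave -0.05 ± 0.32 (SE), adjusted p = 0.939 with SPANX KD 87. The call was lost without SPANX KD 86 replicate 1 (adjusted p = 0.0884) or SPANX KD 86 replicate 3 (0.0534).

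HNRNPK, whose KH domains bind cytosine-rich RNA and DNA, had 8073, 7561 and 7144 normalised reads in SPANX KD 86, 7814, 8081 and 6704 in SPANX KD 87 and 10890, 12245 and 7304 in EV. EV replicate 3 lay within the range of the knockdown libraries, and the log2 fold changes were -0.39 ± 0.22 (SE), adjusted p = 0.197 with SPANX KD 86 and -0.40 ± 0.22 (SE), adjusted p = 0.272 with SPANX KD 87. The remaining hnRNP genes passed for neither construct, with or without the replicate block alone. With the block and the length trend removed together, HNRNPK passed as lower with SPANX KD 86 (adjusted p = 0.0156) and SPANX KD 87 (0.0278). In that fit HNRNPLL (0.0183) and HNRNPUL2 (0.00488) also passed as lower with SPANX KD 86, and HNRNPR (0.0365) with SPANX KD 87. HNRNPL and HNRNPLL, which bind CA-rich RNA, had adjusted p of 0.425 and 0.207 with SPANX KD 86, and 0.305 and 0.654 with SPANX KD 87. For HNRNPR, which binds transcripts carried to axons in mouse neurons, the adjusted p was 0.667 with SPANX KD 86 and 0.207 with SPANX KD 87. For HNRNPUL2, a further HNRNPU relative, it was 0.244 with SPANX KD 86 and 0.912 with SPANX KD 87. HNRNPA1L2, an HNRNPA1 retrocopy with 29.6 to 49.1 normalised reads over all libraries, had 0.292 with SPANX KD 86 and 0.621 with SPANX KD 87. Within EV, replicate 3 was the lowest library for 18 of 21 hnRNP genes and replicate 2 the highest for 13. Without EV replicate 3, HNRNPA1 (adjusted p = 0.0271), HNRNPA2B1 (0.0481), HNRNPA0 (0.0391), HNRNPAB (0.011), HNRNPD (0.0424), HNRNPK (0.04) and HNRNPUL2 (0.0319) also passed as lower with SPANX KD 86.

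**Figure D4:**
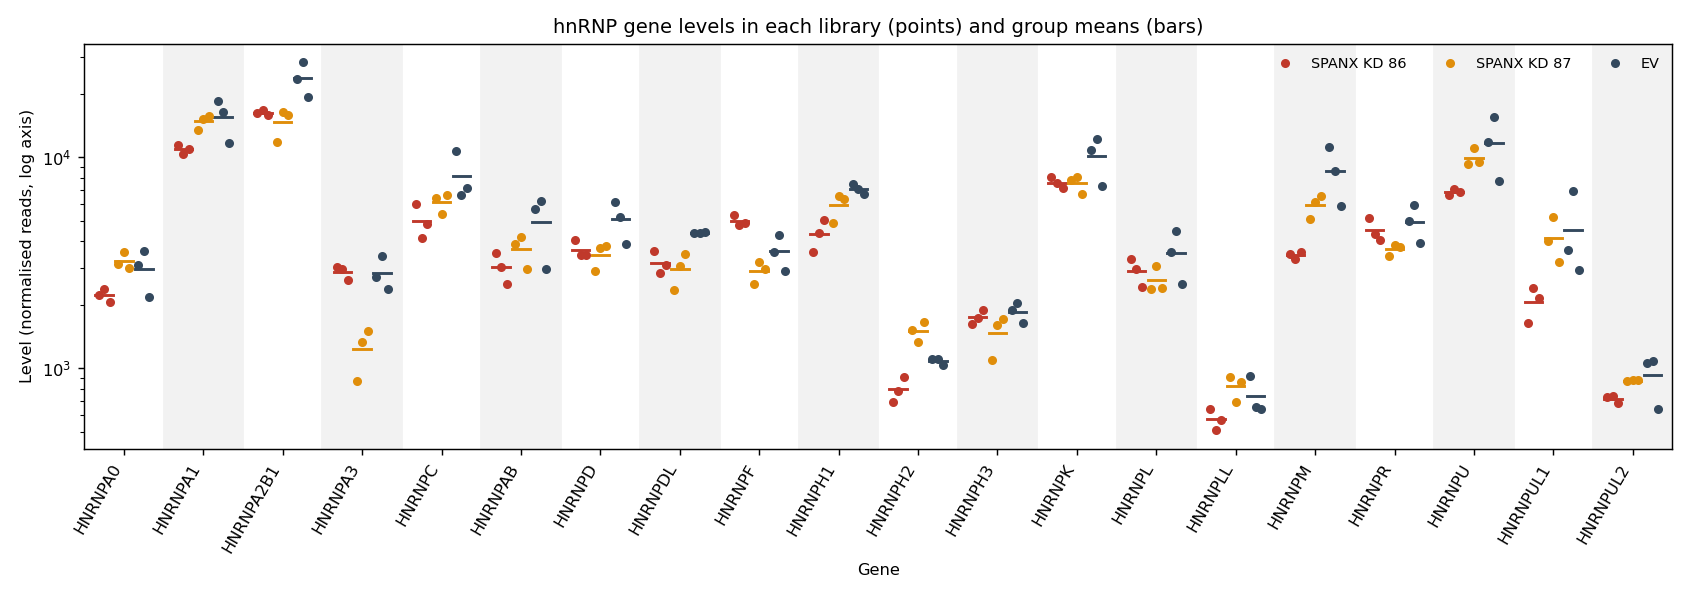
The plot of hnRNP levels shows each library (point) and group mean (bar) for 20 hnRNP genes ordered by class, in normalised reads on a log axis. The SPANX KD 86 points of HNRNPM and HNRNPUL1 and the SPANX KD 87 points of HNRNPA3 lie below all others, and HNRNPH2 separates all 3 groups.

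The constructs themselves were then compared. Of 37 members, 4 were higher and 2 lower in SPANX KD 87 than in SPANX KD 86 (16.2%), against 25.6% of all genes in either direction, 12.7% higher and 12.9% lower. None of the 10 SR genes passed in this comparison, with log2 differences from -0.20 for SRSF4 to 0.39 for SRSF9. Among hnRNP genes, HNRNPH2 (0.92 ± 0.18 (SE), adjusted p = 0.00378), HNRNPM (0.78 ± 0.24 (SE), adjusted p = 0.0344) and HNRNPUL1 (1.00 ± 0.32 (SE), adjusted p = 0.041) were higher in SPANX KD 87 than in SPANX KD 86. HNRNPA3 (-1.25 ± 0.23 (SE), adjusted p = 0.00335) and HNRNPF (-0.80 ± 0.20 (SE), adjusted p = 0.0137) were lower in SPANX KD 87. For these 5 genes the libraries of the constructs did not overlap. Every SPANX KD 87 library was above every SPANX KD 86 library for 10 of 37 members and below for 3 of 37, against 22.9% and 22.4% of all genes. HNRNPH2 and HNRNPA3 kept the call in all 18 alternatives, and HNRNPF lost it without SPANX KD 87 replicate 1 (adjusted p = 0.06). HNRNPM lost it without any 1 of the 6 libraries (0.0519 to 0.108) and HNRNPUL1 without any 1 except SPANX KD 87 replicate 3 (0.0664 to 0.139). HNRNPUL1 also lost it without the variance trend (0.0556). The count of 6 was 3 without SPANX KD 87 replicate 1, where 18.1% of all genes passed. With the replicate block 9 were higher and 2 lower, where 22.2% of all genes were higher and 21.9% lower (44.1% in all). HNRNPA0 (0.013), HNRNPLL (0.0144), HNRNPH1 (0.0405) and HNRNPU (0.0408) were added as higher, with the pseudogene HNRNPCP2 (0.0493).

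The 6 members with a pseudogene symbol may share reads with their parent genes, so their values are uncertain. HNRNPA1P48, the protein-coding one in GENCODE 29, had 97 to 295 reads per library. HNRNPA1P33 had 0.974, 0.883 and 5.89 normalised reads in SPANX KD 86, 28.5, 44.8 and 48.1 in SPANX KD 87 and 18.99, 35.8 and 17.3 in EV, which rests on 1, 1 and 5 reads in SPANX KD 86. It passed as lower with SPANX KD 86 (adjusted p = 0.00245) and as higher in SPANX KD 87 than in SPANX KD 86 (0.00101). HNRNPA1P16, HNRNPA1P48, HNRNPCP2, HNRNPKP4 and HNRNPLP2 passed in none of the 3 comparisons, with adjusted p from 0.0529 to 0.897 for SPANX KD 86. With the replicate block HNRNPA1P16 (0.0107), HNRNPA1P48 (0.00808) and HNRNPCP2 (0.0245) passed as lower with SPANX KD 86. Each of these 3 also passed without 1 library: HNRNPA1P16 without SPANX KD 86 replicate 3 (adjusted p = 0.0186), HNRNPA1P48 without EV replicate 2 (0.0202) and HNRNPCP2 without SPANX KD 86 replicate 1 (0.0314).

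Transcript length moved with the fold changes over all genes. In 4 equal groups of genes by annotated transcript length, from the shortest to the longest, the median log2 fold change was -0.42, -0.13, 0.08 and 0.34 with SPANX KD 86 and -0.19, -0.05, 0.06 and 0.17 with SPANX KD 87. The median length was 2157 bases for the SR genes and 2494 for the hnRNP genes, against 2465 for all genes tested. After the trend of each library in length was removed, 13 members (35.1%) passed with SPANX KD 86 and 6 (16.2%) with SPANX KD 87, all lower, against 38.6% and 15.2% of all genes in either direction. SRSF1 (adjusted p = 0.0817), SRSF9 (0.166) and HNRNPC (0.0696) then missed the threshold with SPANX KD 86, while HNRNPA2B1 (0.014), HNRNPDL (0.0315), HNRNPA0 (0.00374) and HNRNPUL2 (0.0207) passed. With SPANX KD 87 HNRNPA2B1 (0.0227), SRSF6 (0.0433) and HNRNPDL (0.0449) were added. In SPANX KD 87 against SPANX KD 86, 8 members passed (21.6%, against 30.4% of all genes), with HNRNPU (0.68, adjusted p = 0.0247) and HNRNPA0 (0.75, 0.00975) added as higher.

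Lists of the genes that work with the members were examined next, beginning with the enzymes that set SR protein phosphorylation. Of 9 measured kinases and phosphatase genes, 2 rose and 1 fell with SPANX KD 86, with a list median of 0.10, and 1 rose with SPANX KD 87, with a median of 0.20. These are 33.3% of the list with SPANX KD 86 and 11.1% with SPANX KD 87, near the 35.6% and 10.3% of all genes that passed. SRPK2, a cytoplasmic kinase of the arginine and serine tail, had 1021, 1000 and 1037 normalised reads in SPANX KD 86, 952, 946 and 921 in SPANX KD 87 and 352, 602 and 542 in EV. All knockdown libraries were above all EV libraries. SRPK2 was 2.09-fold higher with SPANX KD 86 (log2 fold change 1.07 ± 0.21 (SE), adjusted p = 0.00335) and 1.93-fold higher with SPANX KD 87 (0.95 ± 0.21 (SE), adjusted p = 0.019). DYRK1A, a nuclear kinase that also acts on splicing factors, had 770, 817 and 660 in SPANX KD 86, 684, 678 and 530 in SPANX KD 87 and 350, 523 and 381 in EV. It too was above EV in every knockdown library. The log2 fold change was 0.86 ± 0.21 (SE), adjusted p = 0.00993 with SPANX KD 86 and 0.60 ± 0.21 (SE), adjusted p = 0.0908 with SPANX KD 87, which passed with the replicate block (0.0154). PPP1CA, a catalytic subunit of protein phosphatase 1, fell with SPANX KD 86 (-0.61 ± 0.18 (SE), adjusted p = 0.0219) and gave -0.19 ± 0.18 (SE), adjusted p = 0.53 with SPANX KD 87. Of the 3 import receptors none passed against EV (medians 0.38 with SPANX KD 86 and 0.32 with SPANX KD 87). TNPO1, which carries HNRNPA1 into the nucleus, had 8452, 6513 and 4896 in SPANX KD 86, 3244, 3407 and 2663 in SPANX KD 87 and 4425, 6104 and 3180 in EV. It was lower in SPANX KD 87 than in SPANX KD 86 (-1.07 ± 0.27 (SE), adjusted p = 0.0168). Against EV it passed with the replicate block, as higher with SPANX KD 86 (0.55, adjusted p = 0.0203) and lower with SPANX KD 87 (-0.52, 0.0452). TNPO2, a close relative of TNPO1, also passed as higher with SPANX KD 87 under the block (0.56, adjusted p = 0.0338), so that the block gave 1 higher with SPANX KD 86 and 1 higher and 1 lower with SPANX KD 87 among the 3 receptors. Over the kinase and phosphatase list the block gave 2 higher and 3 lower with SPANX KD 86, and 2 higher and 0 lower with SPANX KD 87. For these and the following lists, the block called 55.3% of all genes with SPANX KD 86 and 31.0% with SPANX KD 87.

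SR-related and exon junction proteins fell in 2 of 13 measured genes with SPANX KD 86 (median -0.21) and in 0 of 13 with SPANX KD 87 (median -0.28). The share lower with SPANX KD 86 was 15.4%, against 17.6% of all genes. The 2 were TRA2B (-0.70 ± 0.19 (SE), adjusted p = 0.0166) and TRA2A (-0.71 ± 0.21 (SE), adjusted p = 0.0215), sequence-specific activators that resemble SR proteins. With SPANX KD 87 TRA2B gave -0.53 ± 0.19 (SE), adjusted p = 0.102, passing with the replicate block (0.023). Of 16 other RNA-binding proteins of the hnRNP kind, 1 rose and 4 fell with SPANX KD 86 (median -0.33), and 0 rose and 1 fell with SPANX KD 87 (median -0.22). That is 31.2% called with SPANX KD 86 and 6.25% with SPANX KD 87, against 35.6% and 10.3% of all genes. CIRBP, a cold-inducible RNA-binding protein, had 224, 329 and 447 normalised reads in SPANX KD 86, 1877, 1563 and 2017 in SPANX KD 87 and 958, 843 and 1161 in EV. The 3 groups did not overlap. CIRBP was 3.05-fold lower in SPANX KD 86 than in EV (-1.61 ± 0.25 (SE), adjusted p = 0.00114) and gave 0.89 ± 0.25 (SE), adjusted p = 0.0511 for SPANX KD 87 (0.00533 with the replicate block). It was 5.63-fold higher in SPANX KD 87 than in SPANX KD 86 (adjusted p = 0.000211). QKI, a regulator of exon inclusion and circular RNA, went the other way, higher with SPANX KD 86 (0.61 ± 0.19 (SE), adjusted p = 0.0313) and lower with SPANX KD 87 (-0.83 ± 0.19 (SE), adjusted p = 0.0224). RBMX, or hnRNP G, was lower with SPANX KD 86 (-0.70 ± 0.18 (SE), adjusted p = 0.0132) and gave -0.59 ± 0.18 (SE), adjusted p = 0.0671 with SPANX KD 87 (0.0169 with the replicate block). Over the SR-related list the block gave 3 higher and 4 lower with SPANX KD 86 and 0 higher and 1 lower with SPANX KD 87. Over the other hnRNP-class list it gave 1 higher and 6 lower with SPANX KD 86 and 1 higher and 3 lower with SPANX KD 87.

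The core machinery was taken next. Of 14 measured genes for recognition of splice sites, 0 rose with either construct. With SPANX KD 86 4 fell (median -0.46) and with SPANX KD 87 1 fell (median -0.20). These are 28.6% and 7.14% of the list, against 17.6% and 4.43% of all genes lower (35.6% and 10.3% in either direction). PHF5A, a subunit of the U2 particle, passed with both constructs (-0.91 ± 0.22 (SE), adjusted p = 0.00921 with SPANX KD 86 and -1.12 ± 0.22 (SE), adjusted p = 0.0119 with SPANX KD 87), and SF3A3, another U2 subunit, with SPANX KD 86 (-0.98 ± 0.19 (SE), adjusted p = 0.00299). Of the 8 Sm ring genes, which encode the ring around each spliceosomal RNA, 5 fell with SPANX KD 86 (62.5%, against 17.6% of all genes lower; median -1.32) and 0 with SPANX KD 87 (median -0.99). With the replicate block 6 fell with SPANX KD 86 and 7 with SPANX KD 87. SNRPD1 had 1084, 674 and 947 in SPANX KD 86, 1125, 1067 and 1712 in SPANX KD 87 and 3462, 1654 and 2912 in EV. Its EV replicate 2 stood well below the other EV libraries, as for SRSF3 and SRSF7. The log2 fold change was -1.53 ± 0.31 (SE), adjusted p = 0.00368 with SPANX KD 86 and -1.01 ± 0.31 (SE), adjusted p = 0.0624 with SPANX KD 87, which passed with the replicate block (0.00324). Whether the length trend bears on the Sm genes was not tested. Among 10 genes of nonsense-mediated decay, the pathway through which SR transcripts with poison exons are degraded, 0 rose and 3 fell with SPANX KD 86 (median 0.11) and none passed with SPANX KD 87 (median 0.01). The share called with SPANX KD 86, all lower, was 30.0%, against 17.6% of all genes lower and 35.6% in either direction. The 3 were UPF3B (-1.06 ± 0.33 (SE), adjusted p = 0.0284), UPF3A (-0.78 ± 0.23 (SE), adjusted p = 0.0241) and SMG9 (-0.74 ± 0.21 (SE), adjusted p = 0.0218). With the replicate block 4 decay genes were higher and 3 lower with SPANX KD 86 and 1 was lower with SPANX KD 87, and for splice site recognition 8 were lower with SPANX KD 86 and 1 higher and 2 lower with SPANX KD 87. A 3′ tag count does not tell a productive SR transcript from one with a poison exon, so isoforms were not measured.

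**Figure D5:**
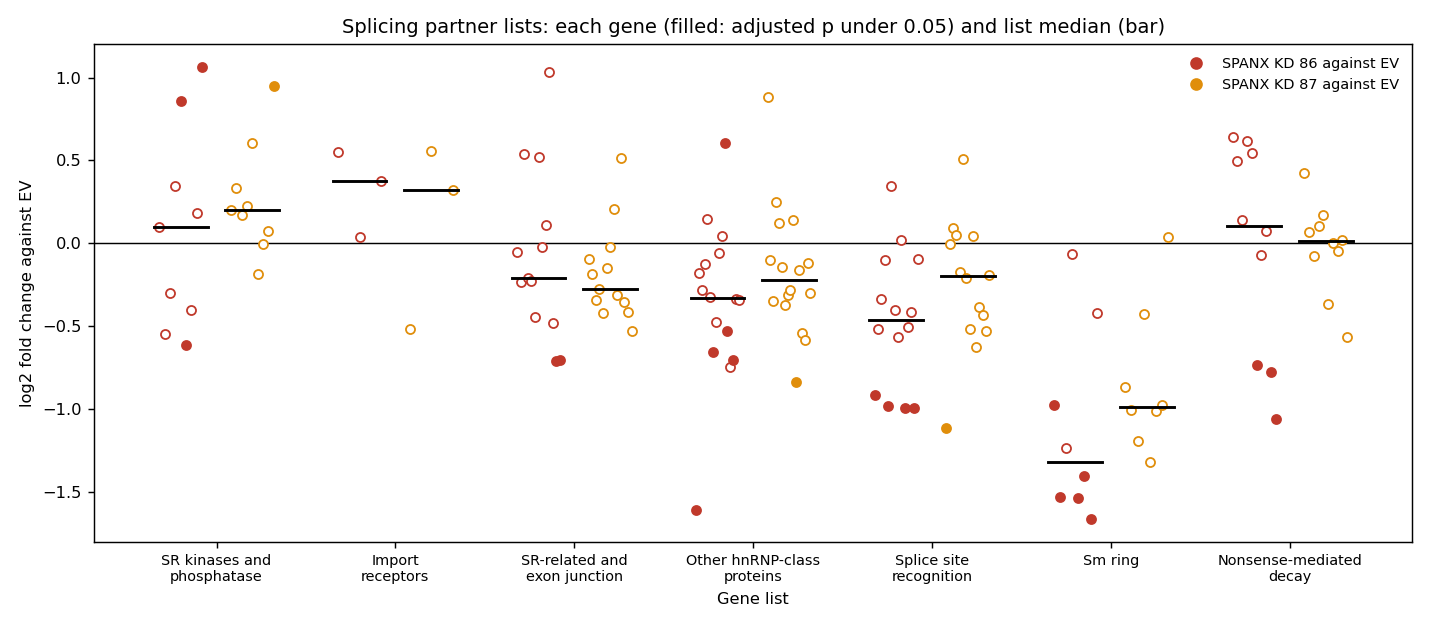
The plot of partner lists gives the log2 fold change against EV of every measured gene of 7 lists, for SPANX KD 86 and SPANX KD 87, with the list median as a bar and filled points for an adjusted p under 0.05. The Sm ring medians are -1.32 and -0.99, while those of the kinases and phosphatase are 0.10 and 0.20.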

How the data were processed

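RNA from 9 libraries was sequenced from 3′ tags, per the labels' protocols. The submitters' processing notes name STAR, Subread, featureCounts and edgeR, without versions, and the build hg19. The authors deposited a normalised read count per gene and library, treated here as a score because it is scaled and rounded to whole numbers. The constant that 1 read is worth was found from the spacing of the deposited values. In the libraries with a constant above 1, whole reads gave back 99.96% to 99.99% of values. The constant was below 1 for EV replicate 2, SPANX KD 86 replicates 1 and 2 and SPANX KD 87 replicate 2. There any constant below 1 gives back 100% of values, so that figure is no check of the constant. The recovered reads were rescaled together with the TMM formula (30% of log ratios and 5% of abundances trimmed). This was done since the files of the groups may have been scaled separately. A 0 across a group may be a filter of the authors.

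A count test had been planned for raw counts. As the values are scaled and rounded, limma 3.58.1 in R 4.3.3 was used on log2 of the level plus 1, which understates changes of low genes, with a mean per group, a variance trend and 6 residual degrees of freedom. Tests were two-sided, and Benjamini-Hochberg adjustment ran over 13825 genes at a threshold of 0.05. All 37 members are accounted for, with values in every library for those past the threshold in any comparison and for the 4 SR and 4 hnRNP members with the highest mean in EV; from each partner list the 3 genes with the smallest adjusted p were eligible to be named. SRPK3, LUC7L2 and U2AF1 were listed at 0, and SF3B6 was not found under that symbol. Members and lists were chosen with earlier results of these data known. Transcript lengths came from GENCODE 29, an annotation on GRCh38, which held 99.6% of the gene IDs tested. The submitters' notes name hg19, and this difference was not resolved. No coordinates from the deposited data were used.

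Same-numbered libraries deviated together: over 13322 genes the correlation of deviations from the group means was 0.208 to 0.745 in the 9 same-numbered pairs of libraries and -0.66 to 0.151 in the 18 others. The replicate number was therefore read as pairing the libraries, from the data and not from the labels. The fit with a replicate block is given where it changes a call. Deviations from a group mean cancel out within the group, so positive values in the same-numbered pairs lower the others. The low values of the 18 others are thus no separate sign of pairing. Alternatives covered scaling, pseudocount (0.5 or 5), filters, variance trend, weights, libraries in the fit, length and each replicate left out.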

Additional observations from a re-analysis of the deposited data

Results flagged for a closer look

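For 6 members the constructs differed from each other in the test of that difference, in SPANX KD 87 relative to SPANX KD 86. The log2 difference was -1.25 for HNRNPA3 and -0.80 for HNRNPF, both lower in SPANX KD 87. It was 0.78 for HNRNPM, 0.92 for HNRNPH2 and 1.00 for HNRNPUL1, all higher in SPANX KD 87, and 3.78 for the pseudogene HNRNPA1P33, which rests on 1, 1 and 5 reads in SPANX KD 86.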

How the results depend on the processing

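With SPANX KD 86 against EV, 12 members passed; the count was 23 with the replicate block, 23 with the block and the length trend removed, and 5 to 18 when 1 replicate was left out. With SPANX KD 87 against EV, 3 passed; the count was 1 without the variance trend, 1 with only the 2 groups compared, 6 with the length trend removed, 10 with the replicate block, 12 with both, and 1 to 4 when 1 replicate was left out. In SPANX KD 87 against SPANX KD 86, 6 passed, against 11 with the replicate block, 11 with both, and 3 to 5 when 1 replicate was left out. The block in these paired fits added 11, 7 and 5 calls in the 3 comparisons, took none away and changed no other call. Over all genes the block gave 7647, 4283 and 6094 calls, against 4925, 1429 and 3533 without it. Of 378 values of called members under the alternatives 317 kept the call and 61 lost it, and of all 1995 values of members none reversed a call's direction (0 in number). Scaling, pseudocount, filters on low values and weights gave 12 to 13, 3 and 6 calls in the 3 comparisons. The low depth of members with a pseudogene symbol, down to 1 read in a library, limits what can be said of them.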
